A study of Homo sapiens with 8 samples.

Results

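The genes described here are 8 that build or load MHC class I molecules, the heavy chain genes HLA-B, HLA-C, HLA-E and HLA-F, the light chain gene B2M, the peptide transporter genes TAP1 and TAP2 and the tapasin gene TAPBP, together with the long noncoding RNA gene HCP5. They are 9 of 63677 genes in the count tables, were chosen by symbol, and each was read on the gene identifier of that symbol with the highest summed count. HCP5 had been selected on its fall under THZ1 in JJN3 cells, so its fold change in that comparison is a description without a test. The data are gene counts from 2 human MM cell lines (HMCLs), JJN3 and H929. THZ1, a covalent inhibitor of the transcriptional kinase CDK7, was given at 50 nM and RNA was taken 24 h later, with the solvent DMSO alone as the control. Each of the 4 groups, named JJN3 DMSO, JJN3 THZ1, H929 DMSO and H929 THZ1, had 2 libraries, and the labels name no genetic change in either line. The labels do not say whether the 2 libraries of a group came from separate cultures, so the p-values measure only the spread between these libraries.

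MHC class I molecules show peptides from inside the cell to CD8+ T cells and to natural killer cells. Proteasomes cut the peptides, the TAP1/TAP2 transporter carries them into the endoplasmic reticulum, and tapasin holds the empty heavy chain and B2M dimer next to the transporter until a peptide is bound. In cells of the B lineage these genes are active without stimulation and are raised further by interferon through NLRC5 and IRF factors. HCP5 lies among the class I genes and arose from class I sequence joined to an endogenous retrovirus.

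Total counts were 17476443 to 19194371 per library, and the 9 genes took 0.296% to 0.673% of them. All 8 plasma cell markers examined, SDC1 and XBP1 among them, had counts in every library, with a summed level of 1449 to 6930 CPM (counts scaled to library size with TMM factors over the 8 libraries). In JJN3 5 of the 8 were called lower with THZ1 by the limits given below (median log2 fold change -0.58), beside 21.3% of all genes. Between the H929 labels 6 were higher and 2 lower (median 2.59), beside 33.1% and 32.6% of all genes. SLAMF7 for one had 2 and 174 counts in H929 DMSO and 8948 and 9173 in H929 THZ1. Their part in the results was not tested. The summed level of 4 myeloid markers was at most 1.08 CPM in any library, and that of 4 B cell markers at most 3.94 CPM. Of the 4 T cell markers, CD3E went from 15 and 26 counts in H929 DMSO to 640 and 650 in H929 THZ1 and TRAC from 0 and 2 to 48 and 43, and CD3D and CD2 had at most 6 counts in any library. CD3E and TRAC were also called higher with THZ1 in JJN3 (log2 fold change 1.08 and 1.94). Of the 3 natural killer cell markers, NCAM1 had 1 and 59 counts in H929 DMSO and 3246 and 3292 in H929 THZ1. It was lower with THZ1 in JJN3 (-1.75). NKG7 and GNLY had at most 10 counts in any library, and GNLY had 9 and 5 in H929 DMSO against 4 and 3 in H929 THZ1.

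The libraries labelled H929 stand apart from each other by label, which bears on every result that uses them. Lambda genes held 99.99% and 97.96% of the immunoglobulin light chain V gene counts of the H929 DMSO libraries, against 0.203% and 0.194% in those labelled H929 THZ1. The 4 JJN3 libraries ranged from 0.244% to 0.369%. For H929, treatment and the source of the cells cannot be told apart, so each difference there is one between labels. Without a spike-in, a value is also relative to the rest of its library, and fewer cells and less RNA per cell cannot be told apart.

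The upstream sequences show how HCP5 relates to the class I genes. RefSeq start sites (GRCh38.p14) were at hand for 8 of the 9 genes, HLA-E being the one without an entry. Over the 250 bases before the start, HCP5 was 76.1% identical to HLA-F, 75.2% to HLA-B and 74.5% to HLA-C, and HLA-B and HLA-C were 89.0% identical. Against B2M, TAP1, TAP2 and TAPBP the identity of HCP5 was 47.6% to 52.2%, beside 47.3% to 51.9% for the remaining pairs that were not both among HCP5 and the heavy chain genes. The stretch from 200 to 41 bases before the start is printed for these 4 related genes, because it holds the part they share, with motif matches in capitals. They lie at chr6:31462980-31463139, plus strand (HCP5), chr6:31357220-31357379, minus strand (HLA-B), chr6:31272133-31272292, minus strand (HLA-C) and chr6:29723234-29723393, plus strand (HLA-F).
HCP5: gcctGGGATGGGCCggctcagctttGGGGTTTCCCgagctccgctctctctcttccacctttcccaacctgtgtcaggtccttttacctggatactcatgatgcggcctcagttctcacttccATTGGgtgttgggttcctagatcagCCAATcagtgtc
HLA-B: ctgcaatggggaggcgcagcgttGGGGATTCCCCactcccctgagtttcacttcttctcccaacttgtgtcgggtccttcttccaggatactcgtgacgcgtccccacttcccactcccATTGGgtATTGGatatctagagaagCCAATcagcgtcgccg
HLA-C: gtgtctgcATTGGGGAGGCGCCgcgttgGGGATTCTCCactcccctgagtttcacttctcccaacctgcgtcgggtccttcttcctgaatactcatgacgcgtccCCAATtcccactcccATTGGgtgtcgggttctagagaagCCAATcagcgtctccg
HLA-F: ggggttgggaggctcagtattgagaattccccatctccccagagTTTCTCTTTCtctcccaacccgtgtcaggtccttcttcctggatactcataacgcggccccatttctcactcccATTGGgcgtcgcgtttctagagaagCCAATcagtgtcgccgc

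The capitals mark 3 motifs, searched on both strands in the 250 bases. GAAANNGAAA is the core of the element that interferon-regulated factors read and was present in 3.02% of the 35116 promoter windows of the table. GGGANNNNCC is the pattern of NF-kappa B sites, present in 22.6%, and CCAAT is the box read by NF-Y, present in 32.0%. Matches can overlap, as the kappa B pattern does with itself in HLA-B and with CCAAT in HLA-C. HCP5, HLA-B and HLA-C each held 2 kappa B matches and at least 2 CCAAT matches but no interferon core, whereas HLA-F held 1 interferon core, 2 CCAAT matches and no kappa B match. A match is a run of letters and was not tested as a binding site. Only exact matches were searched, so a gene without one may still hold a looser form of the same element.

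The interferon core was found in all 4 genes of the light chain and the peptide supply. B2M, TAP1 and TAPBP each had 2 overlapping copies and TAP2 had 1. These stretches are printed to show the copies, from chr15:44711367-44711476, plus strand (B2M), chr6:32853765-32853844, minus strand (TAP1, the more upstream of 2 listed starts), chr6:32838740-32838819, minus strand (TAP2) and chr6:33314079-33314178, minus strand (TAPBP).
B2M: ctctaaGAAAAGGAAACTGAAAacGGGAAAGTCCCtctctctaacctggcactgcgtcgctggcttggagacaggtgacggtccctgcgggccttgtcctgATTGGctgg
TAP1: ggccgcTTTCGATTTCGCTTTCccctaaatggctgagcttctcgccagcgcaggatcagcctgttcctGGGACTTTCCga
TAP2: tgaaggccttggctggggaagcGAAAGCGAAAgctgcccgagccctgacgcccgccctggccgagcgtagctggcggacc
TAPBP: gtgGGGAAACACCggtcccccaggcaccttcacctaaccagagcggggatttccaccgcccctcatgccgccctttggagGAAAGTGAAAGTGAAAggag

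By level, B2M was far above the other genes. Divided by the length of the canonical transcript, mean levels in JJN3 DMSO were 2926 CPM per kb for B2M, 350.5 for HLA-B, 319 for HLA-C, 92.0 for TAPBP, 56.0 for HLA-E, 37.4 for TAP1, 15.3 for TAP2, 8.54 for HCP5 and 2.87 for HLA-F. HLA-B and HLA-C, at 538 ± 47.8 and 491 ± 6.85 CPM (SD, n = 2), were separated by about the spread of HLA-B. Their libraries did not overlap, and nor did those of the other neighbours in the order. B2M exceeded 99.97% of the genes compared, and HCP5 76.9%. Reads were 50 bases long and only those aligned to 1 place were kept, so reads that match several heavy chain genes equally well are missing from the counts, and each single heavy chain value is uncertain to that extent.

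In JJN3, B2M and HLA-C were called higher with THZ1, and both TAP genes and HCP5 were lower. Among all 13984 genes tested, 21.3% were called lower and 20.6% higher, where a call needs an adjusted p under 0.05 and a log2 fold change beyond 0.5. Of the 9 genes, 3 were called lower, HCP5 being one of them, 2 higher and 4 neither. Their median log2 fold change was -0.14, beside 0.00 over all genes. This contrast was known when the genes were listed, and nothing is read from these counts.

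**Figure D1:**
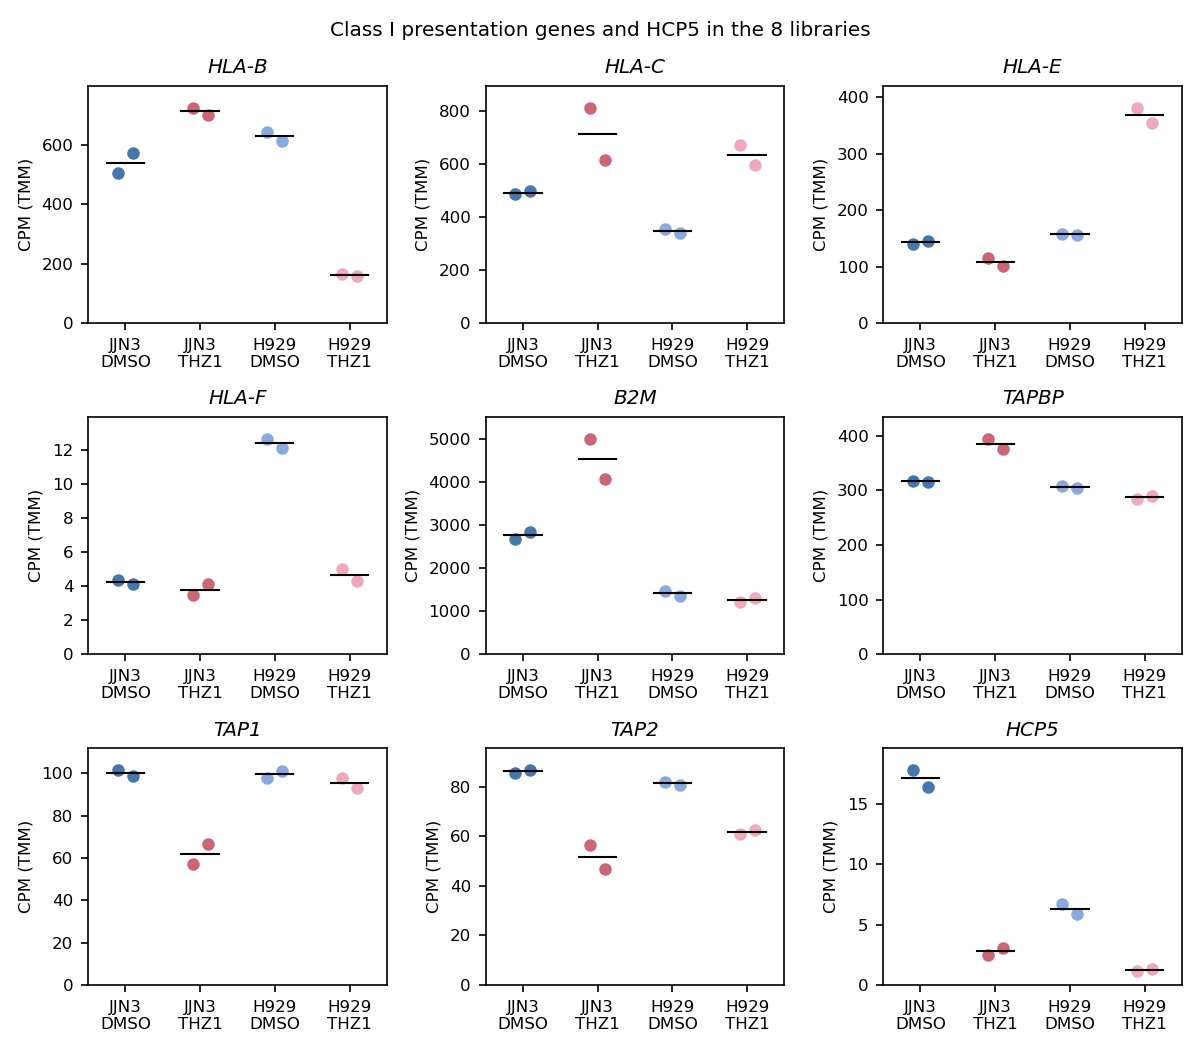
Each panel plots one gene, with CPM (TMM-scaled, linear axis from 0) against the group, a point per library and a line at the mean of 2. HCP5 is lower in both THZ1 groups, HLA-B, HLA-E and HLA-F move mainly between the H929 labels, and B2M is highest in JJN3 THZ1.

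B2M, the invariant light chain, was at 2681 and 2837 CPM in the JJN3 DMSO libraries and at 5011 and 4081 CPM under THZ1. The groups did not overlap, and B2M was the most abundant of the 9 genes in every library. Its log2 fold change was 0.74 (SE 0.133, adjusted p = 0.00068, quasi-likelihood test of edgeR). In the libraries labelled H929 it was at 1468 and 1349 CPM without and at 1221 and 1297 CPM with THZ1. These groups lay close to each other, with a log2 fold change of -0.16 (SE 0.0642, adjusted p = 0.0351) that did not reach the fold limit.

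HLA-C presents peptides and is also the main ligand of the killer cell inhibitory receptors. It measured 487 and 496 CPM in JJN3 DMSO and 813 and 615 CPM in JJN3 THZ1. Both treated libraries were above both controls, with a log2 fold change of 0.55 (SE 0.123, adjusted p = 0.00257). This call rests on the JJN3 THZ1 library numbered 1, since without it the log2 fold change was 0.34 and the fold limit was missed, as it was with scaling to total counts (0.45). Between the H929 labels, HLA-C was higher with THZ1, at 671 and 597 CPM against 356 and 338 CPM (log2 fold change 0.87, SE 0.0619, adjusted p = 2.03e-09). HLA-C was the only one of the 9 genes called higher in both.

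HLA-B, the other classical heavy chain among these genes, had 504 and 572 CPM in JJN3 DMSO and 725 and 701 CPM in JJN3 THZ1. The JJN3 groups did not overlap, but the log2 fold change of 0.42 (SE 0.0982, adjusted p = 0.00348) was under the fold limit. Leaving out the JJN3 DMSO library numbered 2 gave 0.50, just past the limit. HLA-B fell between the H929 labels, from 643 and 613 CPM to 166 and 157 CPM. That is a log2 fold change of -1.96 (SE 0.0562, adjusted p = 3.56e-14), in the opposite direction from JJN3.

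HLA-E displays leader peptides of other heavy chains to the NKG2A receptor of natural killer cells. Its JJN3 levels were 139 and 146 CPM with DMSO and 116 and 101 CPM with THZ1, a log2 fold change of -0.38 (SE 0.0874, adjusted p = 0.00321) under the fold limit. It was higher in the libraries labelled H929 THZ1, at 382 and 355 CPM against 158 and 156 CPM (log2 fold change 1.23, SE 0.0541, adjusted p = 5.22e-12). HLA-B and HLA-E therefore separated the H929 labels in opposite directions, and in both genes the groups were far apart.

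HLA-F, a scarce heavy chain that can reach the surface without peptide, had 84, 81, 57 and 74 counts in the 4 JJN3 libraries, controls first. The JJN3 groups were close together (log2 fold change -0.14, SE 0.215, adjusted p = 0.591). In the libraries labelled H929 it fell, with 236 and 219 counts under DMSO and 95 and 81 under THZ1 (log2 fold change -1.42, SE 0.147, adjusted p = 2.23e-07). The H929 DMSO libraries were thus the only ones with more than 100 counts.

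TAP1 and TAP2, the 2 chains of the transporter, fell together in JJN3. TAP1 went from 102 and 99.0 CPM to 57.1 and 66.8 CPM (log2 fold change -0.68, SE 0.0916, adjusted p = 8.76e-05). TAP2 went from 85.4 and 86.9 CPM to 56.6 and 46.8 CPM (log2 fold change -0.72, SE 0.0970, adjusted p = 8.48e-05). In neither gene did the groups overlap, and the calls were kept in every alternative tried except the fold limit of 1.

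Under the H929 labels the transporter genes differed less. TAP1 had 97.7 and 101 CPM with DMSO and 97.9 and 92.9 CPM with THZ1, so the groups overlapped (log2 fold change -0.05, SE 0.0575, adjusted p = 0.391). TAP2 was at 81.9 and 80.7 CPM against 60.7 and 62.5 CPM, a log2 fold change of -0.40 (SE 0.0610, adjusted p = 1.95e-05) that stayed under the fold limit. TAPBP, whose product tapasin edits the peptides loaded, was the steadiest of the 9 genes in level. It lay between 284 and 395 CPM in all 8 libraries, with log2 fold changes of 0.30 (SE 0.0827, adjusted p = 0.00921) in JJN3 and -0.09 (SE 0.0502, adjusted p = 0.119) under the H929 labels, neither past the fold limit.

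HCP5 (chr6:31430947-31446713, plus strand, GRCh37, annotated as a long noncoding RNA) had 345 and 320 counts in JJN3 DMSO and 41 and 55 in JJN3 THZ1. In CPM the mean was 17.1 ± 1.03 against 2.78 ± 0.390 (SD, n = 2), with a log2 fold change of -2.60 (SE 0.171). The libraries labelled H929 were not used to select HCP5. There HCP5 was counted 124 and 106 times without THZ1 and 22 and 25 times with it, which gave a log2 fold change of -2.33 (SE 0.227, adjusted p = 1.00e-07). The 2 fold changes differed by 0.28 (SE 0.309), which is given without a test because JJN3 had selected the gene.

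**Figure D2:**
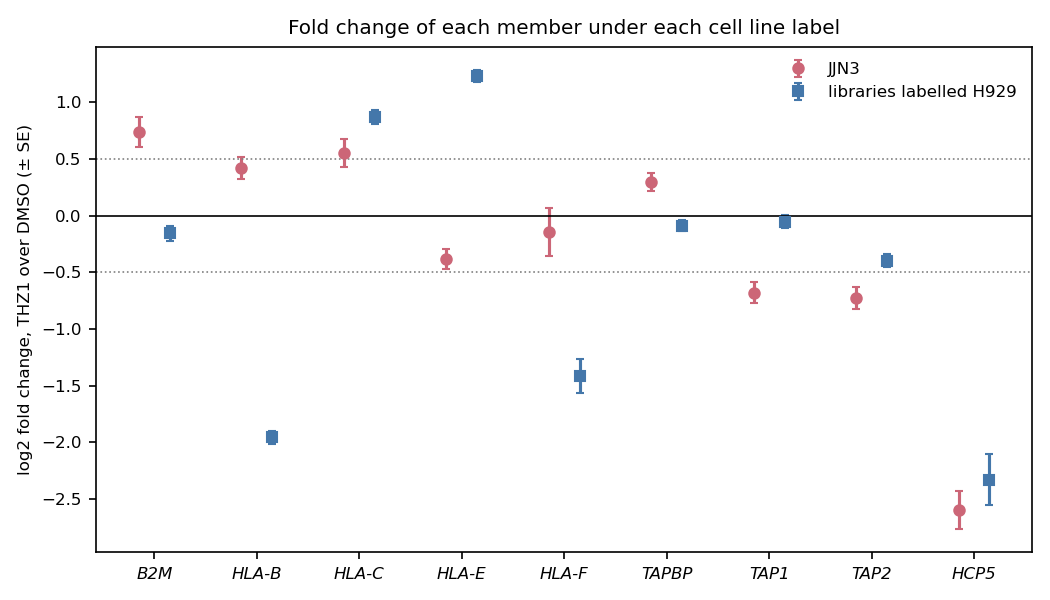
The vertical axis is the log2 fold change of THZ1 over DMSO with its SE, for each gene, as circles for JJN3 and squares for the libraries labelled H929, and dotted lines stand at the fold limits of 0.5 in either direction. HLA-C lies past the upper limit in both and HCP5, which had been selected on its JJN3 value, past the lower one, while HLA-B, HLA-E, HLA-F, B2M and TAP1 are far apart.

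Under the H929 labels 32.6% of 14863 genes were called lower and 33.1% higher, and of the 9 genes 3 were lower (HLA-B, HLA-F and HCP5) and 2 higher (HLA-C and HLA-E). These shares are about those of the background. The difference of the 2 responses was tested in a fit of all 8 libraries, where 25.5% of 16122 genes were called lower and 28.1% higher under H929 than in JJN3. The response under the H929 labels was lower for HLA-B (difference of log2 fold changes -2.37, SE 0.110, adjusted p = 3.91e-11), HLA-F (-1.26, SE 0.252, adjusted p = 0.000387) and B2M (-0.88, SE 0.136, adjusted p = 3.08e-05). It was higher for HLA-E (1.62, SE 0.108, adjusted p = 2.20e-09) and TAP1 (0.63, SE 0.112, adjusted p = 0.000123). The differences for HLA-C (0.33), TAP2 (0.34), and TAPBP (-0.38) did not pass both limits (adjusted p = 0.0644, 0.0210 and 0.00212).

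Without THZ1 the 2 DMSO groups differed in 3 of the 9 genes, with 30.7% of all genes called lower and 30.8% higher under the H929 label. HLA-F was higher under the H929 label (log2 difference 1.55, SE 0.162, adjusted p = 2.64e-07). B2M (-0.97, SE 0.0965, adjusted p = 1.41e-07) was lower there, and HCP5 was lower too (-1.45, SE 0.148, given without a test). HLA-C stood at the fold limit, at -0.50 (SE 0.105, adjusted p = 0.000423), and passed it in 6 alternatives. Between the THZ1 groups 32.3% of all genes were lower and 31.6% higher under the H929 label, and 5 of the 9 genes were called. HLA-B (-2.15), B2M (-1.85) and, without a test, HCP5 (-1.17) were lower, and HLA-E (1.76) and TAP1 (0.62) higher.

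The balance between the genes moved as well. JJN3 libraries had 2.36 and 2.33 B2M counts per count on the 4 heavy chain genes with DMSO and 3.02 and 2.87 with THZ1, without overlap. In the libraries labelled H929 this ratio was 1.25 and 1.21 with DMSO and 0.999 and 1.17 with THZ1. HLA-B counts per HLA-C count ran from 0.892 to 1.15 over the 4 JJN3 libraries, and the groups overlapped. That ratio was, by H929 label, 1.80 and 1.81 with DMSO but 0.247 and 0.263 with THZ1, so which of the 2 classical genes had more counts changed. Whether reads of either gene aligned equally well under both labels was not tested. The ratio moved with the lambda share of those libraries, and the source of the cells cannot be told apart from treatment in it.

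**Figure D3:**
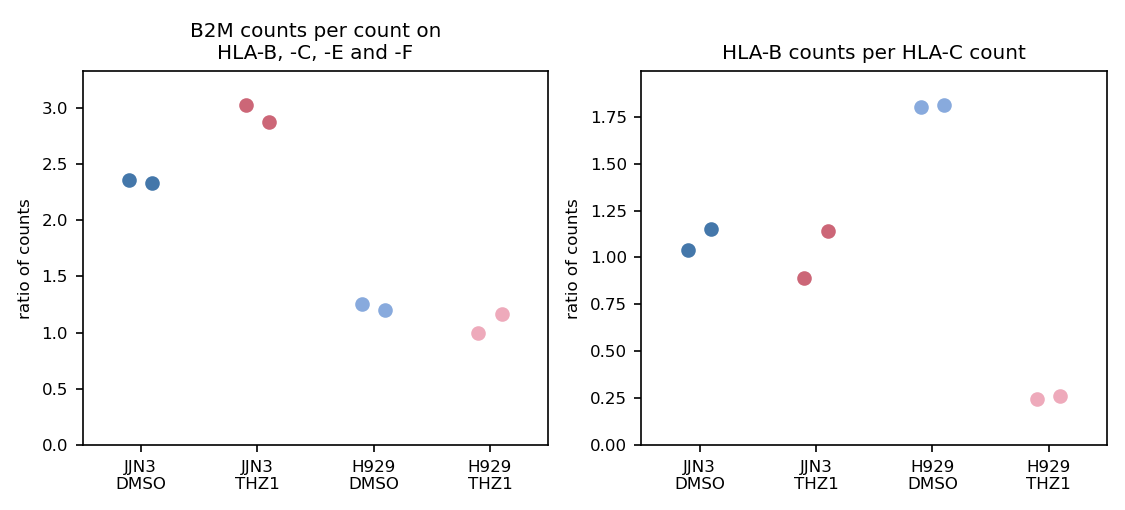
Both panels plot a ratio of raw counts on a linear axis from 0, a point per library by group, B2M over the summed heavy chain genes on the left and HLA-B over HLA-C on the right. On the left both JJN3 THZ1 points are above both JJN3 DMSO points, and on the right the H929 THZ1 points lie at about 0.25 and the H929 DMSO points at about 1.8.

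The proteasome genes supply the peptides. Of the 5 genes of the immunoproteasome list, all tested in JJN3, 3 were called lower and 2 neither, beside 21.3% of all genes lower, and their median log2 fold change was -0.86. PSMB9, which shares a two-way promoter region with TAP1, had 878 and 1081 counts in the controls and 217 and 323 in the treated libraries (log2 fold change -1.67, SE 0.147). PSMB10 fell by 1.03 on the log2 scale and PSMB8 by 0.86, so all 3 inducible catalytic subunits were lower. The activator genes PSME1 (0.06) and PSME2 (-0.23) were not called. Of the 3 constitutive subunits, PSMB5 fell (-1.10, SE 0.126) and PSMB6 (0.16) and PSMB7 (0.08) were not called. Between the H929 labels PSMB9 (-0.95) and PSMB5 (-0.75) were called lower, beside 32.6% of all genes, while PSMB10 (0.41) and PSMB8 (-0.37) were not called. The response of PSMB8, PSMB9 and PSMB10 was called higher under the H929 labels than in JJN3, by 0.50, 0.73 and 1.44, beside 28.1% of all genes. For PSME1 and PSME2 that difference was not called.

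Of 10 genes for peptide trimming and loading, 2 were lower, 2 higher and 6 neither in JJN3, with a median of 0.15. These shares are about those of all genes, of which 21.3% were lower and 20.6% higher. The aminopeptidase genes LNPEP (1.32, SE 0.0864) and ERAP1 (0.75, SE 0.112) rose, and the peptidase THOP1 (-0.67, SE 0.0824) and the chaperone calreticulin, CALR (-0.54, SE 0.118), fell. For H929, 1 of the 10 was lower and 1 higher, beside 32.6% and 33.1% of all genes. Of 12 further class I and class I-like genes, 5 could be tested in JJN3, with log2 fold changes between -0.50 and 0.45. The stress ligand genes MICA (-0.50, adjusted p = 0.0229) and MICB (-0.37, adjusted p = 0.00372) had an adjusted p under 0.05 but stayed within the fold limit.

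Among 17 listed transcription factor genes for class I promoters, 16 were tested in JJN3, 3 were lower and 1 higher, beside 21.3% and 20.6% of all genes, with a median of -0.17. RFX5, a subunit of the factor that reads the X box of MHC promoters, had 6422 and 6263 counts in the controls and 2143 and 2366 under THZ1 (log2 fold change -1.30, SE 0.0800). The NF-kappa B subunit gene RELB (-0.95, SE 0.124) and RFXANK, a partner of RFX5 (-0.67, SE 0.0935), were also lower, and NFYA, a subunit of the CCAAT-binding factor, rose (0.63, SE 0.103). NLRC5, the class I transactivator, was singled out for its role after its values had been seen. In JJN3 it was counted 742 and 763 times without and 539 and 641 times with THZ1, a log2 fold change of -0.16 (SE 0.0932, adjusted p = 0.162). NLRC5 fell between the H929 labels from 913 and 863 to 240 and 277 counts (-1.83, SE 0.0916). Of the 16 factors tested there, 5 were lower and 4 higher, beside 32.6% and 33.1% of all genes. That set held IRF8 but not IRF9, the reverse of the set tested in JJN3. RELB (-1.10) and NFYA (-0.502) were among the lower, and RFX5 (-0.385) and RFXANK (-0.125) were not called.

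Of the 7 interferon receptor and kinase genes, 2 rose in JJN3 and 5 were not called, beside 20.6% of all genes higher, with a median of 0.12. These were JAK1 (1.23, SE 0.0868) and IFNGR1 (0.59, SE 0.0947). Between the H929 labels 2 of the 7 were lower and 4 higher, beside 32.6% and 33.1% of all genes. IFNGR1 was among the lower there (-0.61), and JAK1 (0.37) was not called. Of 20 interferon-stimulated genes only 10 had enough counts to be tested in JJN3, of which 2 were lower and 5 higher, beside 21.3% and 20.6% of all genes, with a median of 0.65. The chemokine gene CXCL10 had 1003 and 1106 control counts and 65 and 35 under THZ1 (-4.20, SE 0.199), whereas IFITM1, a membrane gene against viral entry, rose from 298 and 304 to 611 and 507 counts (1.09, SE 0.138). With the H929 labels 16 could be tested, of which 5 were lower and 9 higher, beside 32.6% and 33.1% of all genes. CXCL10 and IFITM1 (-2.51) were both among the lower there.

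**Figure D4:**
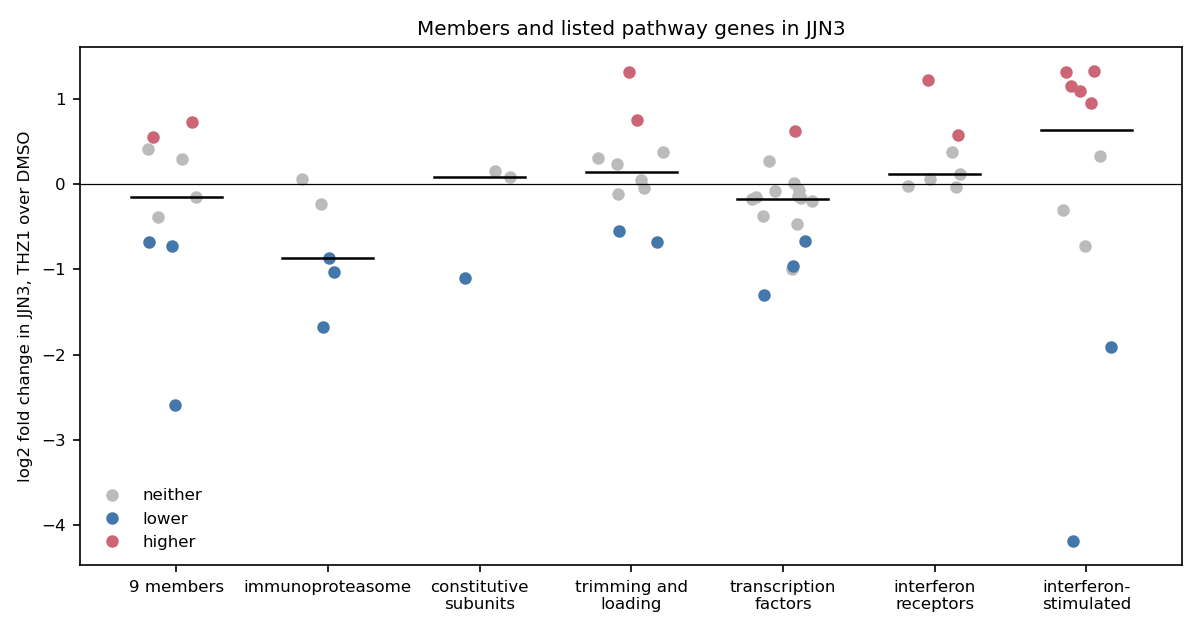
Points are the tested genes of each list by log2 fold change in JJN3 (THZ1 over DMSO), blue when called lower, red when called higher and grey when neither, with a line at the median and sideways scatter only to separate points. The immunoproteasome list has its median at -0.86, and the interferon-stimulated list holds both the lowest point, CXCL10 at -4.20, and 5 of the red points.

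HCP5 and 7 of the other genes lie on chromosome 6 between HLA-F (chr6:29690552-29706305) and TAPBP (chr6:33267471-33282061), and B2M is on chromosome 15 (chr15:45003556-45011049, GRCh37). Between these ends lie HLA-E (chr6:30457286-30461971), HLA-C (chr6:31236526-31239907), HLA-B (chr6:31321649-31334844), TAP2 (chr6:32789610-32806516) and TAP1 (chr6:32812986-32821593). Outside the listed genes, 289 genes of that stretch were examined and 109 tested in JJN3, of which 35 were lower and 18 higher, beside 21.3% and 20.6% of all genes, with a median of -0.23. Of the 6 nearest tested neighbours of HCP5, the RNA helicase gene DDX39B rose in JJN3 (1.24, SE 0.136). MICA (-0.50), XXbac-BPG181B23.7 (-0.02) and HLA-B on one side and MICB (-0.37) and ATP6V1G2 (0.65) on the other were not called. For H929, 116 genes outside the listed ones were tested, with 54 lower, 20 higher and a median of -0.39, beside 32.6% lower, 33.1% higher and a median of 0.01 over all genes.

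**Figure D5:**
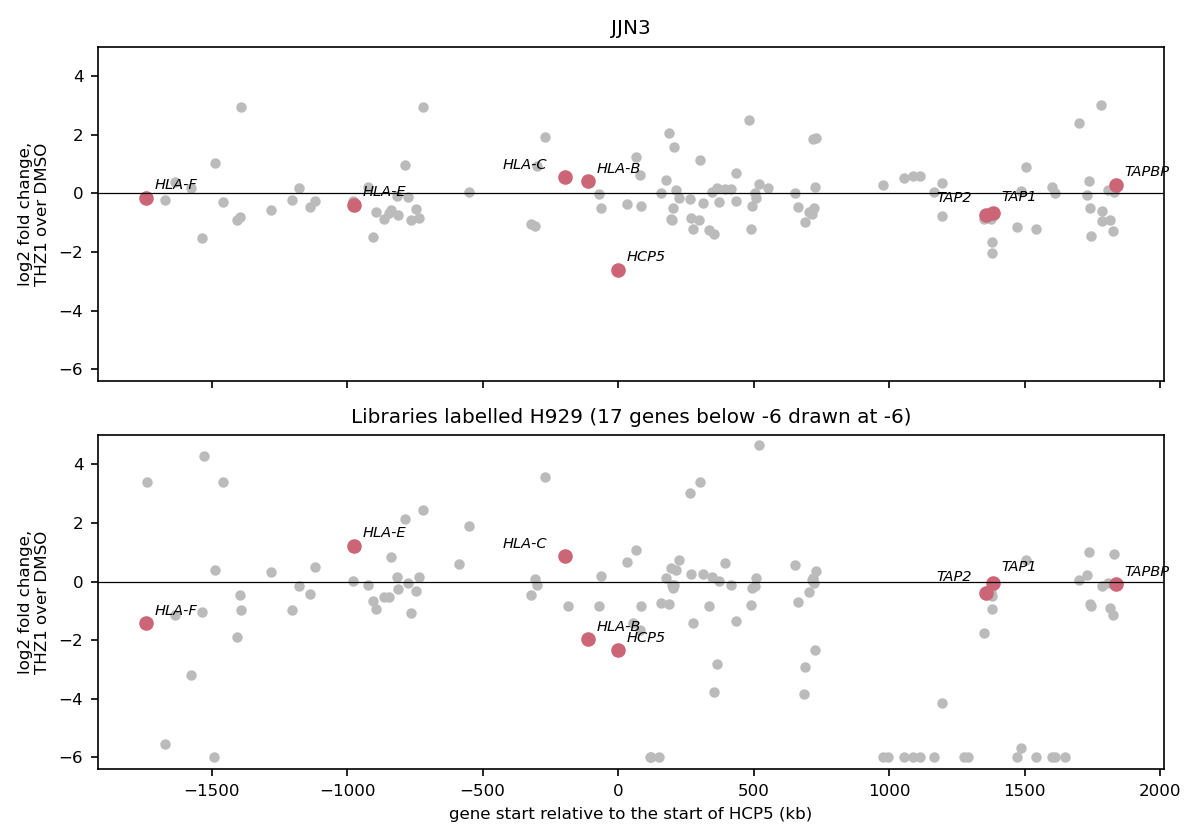
The horizontal axis is the distance of each gene start from that of HCP5 in kb along chromosome 6, and the vertical axis the log2 fold change of THZ1 over DMSO, in JJN3 above and under the H929 labels below, with the genes described here in red. HCP5, selected on its JJN3 value, is the lowest point there, and 17 genes under the H929 labels lie below -6 and are drawn there.

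Class I pseudogenes are a further place for reads that resemble the heavy chain genes. In JJN3 HLA-H had 62 to 80 counts and HLA-L 19 to 53, and HLA-K was lower with THZ1 (71 and 71 counts against 17 and 26, log2 fold change -1.53, SE 0.284). HLA-H held 1151 and 1118 counts in H929 DMSO and 131 and 128 in H929 THZ1. Further identifiers with the symbols of the 9 genes, on alternate copies of the region, held 0 counts.

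Over the 8 libraries the pattern of HCP5 in log2 CPM was most like that of NOP16 (Pearson r = 0.997), DPH5 (0.995), INSIG1 (0.993), TNPO3 (0.993) and the antisense gene VPS9D1-AS1 (0.992), out of 8949 genes compared. The mean of the 8 protein-coding genes was most like ST13 (0.982), SNRPD2 (0.977), POLR2F (0.974), VEGFB (0.973) and THRAP3 (0.973). These 8 genes did not share a pattern, with r = -0.965 for HLA-B and HLA-E and 0.931 for B2M and TAPBP. Their mean need not stand for any single gene. The 8 points come from 4 groups of 2, so these values describe likeness only.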

How the data were processed

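RNA-seq reads, single-end and 50 bases long, were made from total RNA of 8 samples. Per the labels and the study's methods, the authors aligned them with STAR 2.5.2a and counted them per gene with featureCounts, and the deposited values used here are these raw counts, not normalised. Reads that aligned to more than 1 place were dropped at alignment, which removes reads shared by near-identical genes. Whether counting used strand is not given in the sources used here, so overlapping and antisense genes cannot be told apart. The deposited DESeq2 (1.12.4) tables hold the authors' own comparisons, and only their gene symbols were used.

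Groups came from the sample titles. edgeR 4.0.16 in R 4.3.3 was fitted on the whole table (TMM, filterByExpr, quasi-likelihood F test, two-sided, Benjamini-Hochberg over all genes tested), within each line for THZ1 against DMSO and over all 8 libraries for the other contrasts. The call limits were 0.05 for the adjusted p and 0.5 for the log2 fold change in either direction. The SE is the log2 fold change divided by the square root of F. All 9 genes passed the filter on low counts in every fit. Levels per kb used canonical transcripts of GENCODE v44lift37, which may differ from the annotation counted, and gene positions are from it (GRCh37). Promoter windows are RefSeq's on GRCh38.p14, and identity came from a global alignment with Biopython 1.88. The scripts were tested on simulated data.

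The members, lists and tests were chosen with earlier results of these data known. From lists of up to 6 genes every gene could be named, and from longer ones the 3 largest falls and rises called in JJN3 whose mean log2 CPM reached 3. Neighbours are the 3 nearest tested genes on each side of HCP5, and like genes the 5 with the highest r. Alternatives were DESeq2 1.42.0, its size factors or total counts in edgeR, other filters, other call limits, 1 fit of all libraries, symbols summed over identifiers, a replicate block, and leaving out each library. Libraries of the same number in the 2 groups of a line deviated without relation (correlation 0.0096 in JJN3 and -0.012 under the H929 labels). Some genes are not reported here.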

Additional observations from a re-analysis of the deposited data

Results flagged for a closer look

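The change from DMSO to THZ1 differed between JJN3 and the libraries labelled H929 for 5 of the 9 genes, by the test of the difference itself. Of all 16122 genes, 25.5% were called lower and 28.1% higher in that test, so this count is about that of the background. The log2 fold change under the H929 labels minus that in JJN3 was -2.37 for HLA-B, 1.62 for HLA-E, -1.26 for HLA-F, -0.88 for B2M and 0.63 for TAP1. The share of light chain counts on lambda genes went from 99.99% and 97.96% to 0.203% and 0.194% between the same H929 labels, and treatment and the source of the cells cannot be told apart there.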

How the results depend on the processing

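Of 549 repeats of the fold changes of the 9 genes, 537 kept their direction and their side of the limits. With a fold limit of 1, edgeR called 1 of the 9 genes lower and 0 higher in JJN3, 3 lower and 1 higher under the H929 labels, 2 lower and 1 higher for the difference, 1 lower and 1 higher between the DMSO groups, and 3 lower and 1 higher between the THZ1 groups. The 1 lower gene in JJN3 and the 1 lower gene between the DMSO groups were HCP5, which had been selected on its fall in JJN3. HCP5 was also among the lower genes under the H929 labels and between the THZ1 groups. With the adjusted p alone, 4 were higher and 4 lower in JJN3, and 2 were higher and 5 lower under the H929 labels. By that rule 8247 of all 13984 genes passed in JJN3 and 12176 of 14863 under the H929 labels. Between the DMSO groups 2 of the 9 genes were then higher, and HLA-C joined the lower genes, beside 12099 of all 16122 genes that passed. Scaling to total counts left 1 higher in JJN3, B2M at 0.63, since HLA-C at 0.45 lost its call, and it moved the median of all genes to -0.10 in JJN3 and from 0.04 to 0.18 for the difference, with 3639 genes lower and 2353 higher in JJN3. Leaving out each library gave 1 to 3 genes higher in JJN3, 3 without the JJN3 DMSO library numbered 2 (HLA-B added) and 1 without the JJN3 THZ1 library numbered 1. Without the latter HLA-C was at 0.34 in JJN3, at 0.56 and called for the difference, and reversed to 0.079 between the THZ1 groups (range over the libraries left out -0.351 to 0.079). TAP1, near 0 between the DMSO groups, reversed to 0.007 without the H929 DMSO library numbered 1 (range -0.045 to 0.007). The cause of these changes was not tested.

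Library numbers were shared between groups, but nothing says that they mark a shared culture or day, and the check above found no pairing. The replicate block left 3 lower and 2 higher in JJN3, and it moved HLA-C between the DMSO groups from -0.50 to -0.504, past the limit, so that 3 genes in place of 2 were lower there. With 2 libraries per group the spread is poorly known, and HLA-F and HCP5 under THZ1 rest on fewer than 100 counts per library.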
